A study of Mus musculus with 8 samples.

Results

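The genes described here are 10 members of the integrated stress response and the unfolded protein response, out of 50686 gene IDs in the count table: Atf4, Ddit3, Trib3, Asns, Chac1, Ppp1r15a, Xbp1, Herpud1, Sesn2 and Psat1. They were chosen by name from these pathways, and each matched 1 gene ID. They were followed in size-sorted haematopoietic stem cells (HSCs) of C57BL/6J mouse marrow, C57BL/6J being a standard inbred laboratory strain. Small cells came from a gate on the smallest 10% of the HSC preparation, Large cells from a gate on the largest 10%, and Medium cells from a gate within 10% of the mean size, all set on light scatter. The All cells were not split by size. The labels number the libraries of a group 1 and 2, and each library was made from 10000 G0/1-phase cells after lineage depletion and staining of CD117, Sca-1, CD48 and CD150. The sources used here give no age, sex, genotype alteration or drug for these 8 libraries, and do not say whether the 2 libraries of a group came from separate animals or what the number stands for. P-values here therefore measure only the spread between these libraries, which may be technical. Libraries of drug-treated mice named in the series design were not analysed here.

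In the integrated stress response, kinases that sense amino acid shortage, haem shortage, viral RNA or misfolded protein in the endoplasmic reticulum (ER) phosphorylate the translation factor eIF2, which lowers protein synthesis overall while raising translation of Atf4. ATF4 protein then switches on genes of amino acid synthesis and transport, together with CHOP (Ddit3) and feedback inhibitors of the pathway. The unfolded protein response runs in parallel from the ER membrane through PERK, IRE1 and ATF6; IRE1 splices Xbp1 RNA to make an active factor, and ATF6 and XBP1 raise chaperones and degradation factors. In blood stem cells both pathways are known for their part in protein quality control. Gene-level RNA counts read neither Atf4 translation nor the splicing of Xbp1.

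Library depth ran from 13698362 estimated counts in Small 2 to 16838448 in All 2, so depth differed little. Levels are given as CPM, a gene's count relative to its library's total after TMM scaling, for comparisons of 1 gene between libraries. For comparisons between genes they are given as TPM, which also takes gene length into account. The sort antigen genes Kit (513 to 1196 CPM) and Ly6a, which encodes Sca-1 (20.4 to 366 CPM), were present in every library, Slamf1 (CD150) was at 7.58 to 22.6 CPM, and Cd48, an antigen that HSCs lack, was at 12.1 to 159 CPM. The 10 HSC markers together summed to 954 to 1860 CPM in the number 1 libraries and 2071 to 3833 CPM in those of number 2. The 14 granulocyte and monocyte genes, all present and none at 0 in all libraries, summed to 27097 to 63322 CPM in number 1 and 4715 to 24945 CPM in number 2. The numbers thus stood apart on both lists, and member values are given within each number as well as across them. In these bulk samples, fewer cells of a type and less RNA per cell cannot be told apart.

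By median TPM over the 8 libraries, the most abundant member was Xbp1 at 279 (range 217 to 344). Herpud1, which encodes an ER membrane protein that takes part in degradation of misfolded proteins, came next at 246 (161 to 309). Atf4 followed at 186 TPM (138 to 275 TPM) and Ddit3 at 165 (112 to 236). Each of these neighbours overlapped the next. Ppp1r15a, which encodes the GADD34 subunit that brings a phosphatase to phosphorylated eIF2, had a median of 119 TPM. The serine synthesis enzyme Psat1 was at 87.9 TPM and asparagine synthetase, Asns, at 73.2 TPM, with overlapping ranges. A lower tier held the pseudokinase Trib3 at 9.02 TPM (1.05 to 26.2), the stress-inducible regulator of nutrient signalling Sesn2 at 5.98 TPM (3.36 to 11.7) and the glutathione-degrading enzyme Chac1 at 0.91 TPM (0.28 to 2.21). The highest Trib3 value lay below the lowest Asns value, 30.2 TPM, so these tiers did not overlap. The spread of single genes was unequal: the highest library exceeded the lowest by 18.5 times for Trib3, 7.31 times for Chac1 and 5.93 times for Asns, but by 1.72 to 1.79 times for Herpud1, Xbp1, Atf4 and Ddit3.

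**Figure D1:**
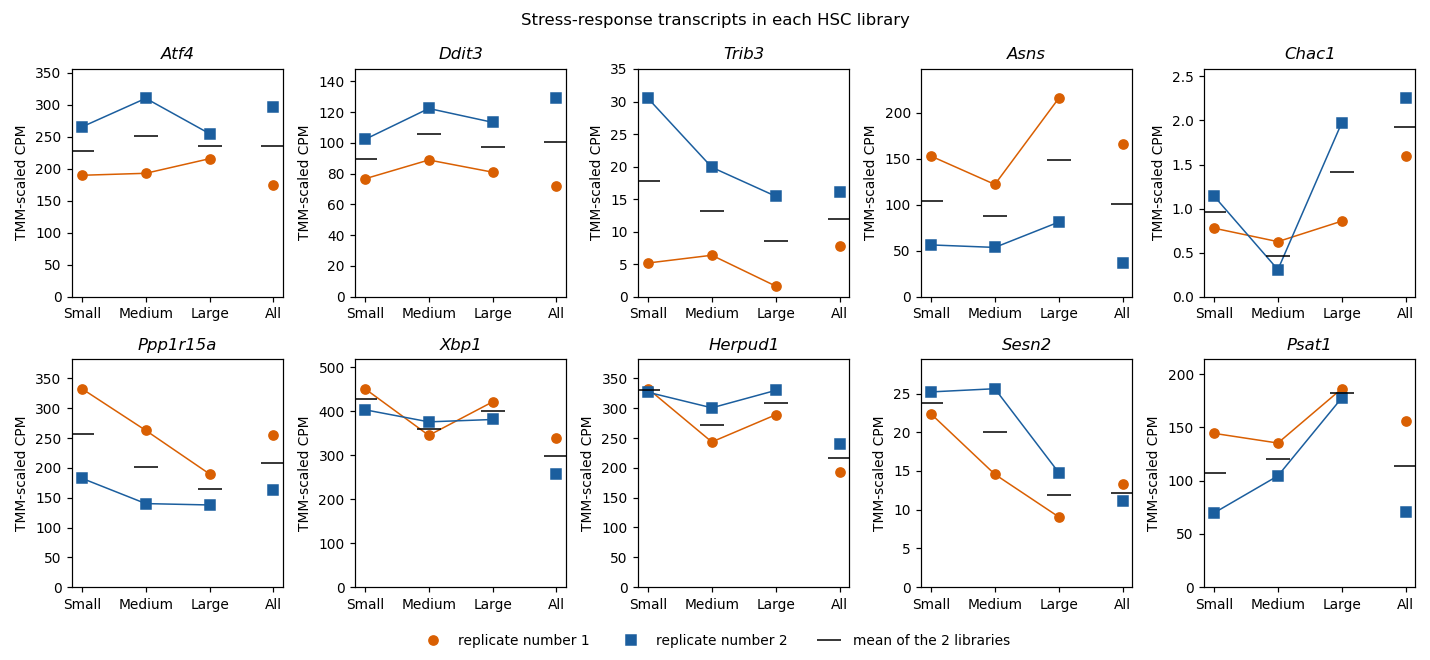
TMM-scaled CPM of each member (linear axis from 0, 1 panel a gene) in the Small, Medium, Large and All libraries, with number 1 as circles, number 2 as squares, lines joining the gates of a number and a bar at the mean of the 2 libraries. Atf4, Ddit3 and Trib3 lie higher in number 2 in every group and Asns and Ppp1r15a lower, while Xbp1 and Herpud1 lie lowest in the All libraries.

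The start sites of the members were searched for 5 elements known from these pathways, to show which members carry them beside their measured levels. RefSeq (GRCm38.p6) gave 11 promoter entries for the 10 members, and the 250 bases before each start were read on both strands. The core of the C/EBP-ATF response element bound by ATF4, TGATGNAA, was found in 3 members, Asns, Chac1 and Herpud1, and in 3.45% of 32851 promoters. The ER stress element ERSE-II was found in Herpud1 and in 0.0304% of promoters. The cyclic AMP response element TGACGTCA was found in Ppp1r15a and in 1.55% of promoters. The ER stress element ERSE (0.113% of promoters) and the core of the unfolded protein response element, TGACGTGG (0.563%), were in no member. The 2 matches in Herpud1 do not overlap each other. A match is a run of letters and no evidence of binding. The 4 stretches that hold matches are given 5′ to 3′ on the strand of the gene, with the matched letters in capitals (TTGCATCA is the first element read on the other strand).
Asns, chr6:7693214-7693243, minus strand: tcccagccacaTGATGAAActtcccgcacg
Chac1, chr2:119351022-119351091, plus strand: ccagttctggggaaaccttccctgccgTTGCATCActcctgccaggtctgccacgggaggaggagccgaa
Herpud1, chr8:94386299-94386398, plus strand: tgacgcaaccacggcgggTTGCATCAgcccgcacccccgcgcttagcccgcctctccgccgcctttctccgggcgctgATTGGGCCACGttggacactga
Ppp1r15a, chr7:45526269-45526328, minus strand: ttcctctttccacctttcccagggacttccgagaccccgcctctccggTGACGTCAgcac
Positions counted back from the RefSeq start put the Asns match at -23 to -16, the Chac1 match at -193 to -186, the Herpud1 matches at -112 to -105 and -52 to -42, and the Ppp1r15a match at -12 to -5. The Asns stretch also overlaps 1 exon in the GENCODE annotation.

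Between the replicate numbers, 6 of the 10 members changed, and they did so in opposite directions. The transcription factor genes Atf4 and Ddit3 and the feedback gene Trib3 were higher in number 2, while the enzymes Asns and Psat1 and the phosphatase subunit Ppp1r15a were lower. Over all 16066 genes tested, 24.6% changed with the number (12.5% higher and 12.1% lower in number 2), so a large share of the transcriptome moved along with these members. By CPM, genes whose 4 libraries of each number stood apart made up 20.8% of all genes, and 5 members were among them: Atf4, Ddit3, Trib3, Asns and Ppp1r15a. The test was edgeR's quasi-likelihood test with the size group as a term and Benjamini-Hochberg adjustment over all genes tested. It treats the 4 libraries of each number as independent samples. The sources do not say what the number stands for, so these libraries may be gates of the same animals or the same sort. If so, the numbers are not replicated, and the p-values and the calls with a library left out, given below, understate the uncertainty.

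Atf4, the central factor of the integrated stress response, was at 190, 193, 216 and 174 CPM in Small 1, Medium 1, Large 1 and All 1, and at 265, 310, 254 and 296 CPM in Small 2, Medium 2, Large 2 and All 2. Every number 2 library was above every number 1 library, and the log2 fold change was 0.54 (SE 0.10, adjusted p = 0.0082 by edgeR). Ddit3, the gene of the pro-apoptotic factor CHOP, was at 76.7, 88.9, 81.0 and 72.2 CPM in number 1 and 102, 122, 113 and 129 CPM in number 2, in the same order of groups. These sets did not overlap either, with a log2 fold change of 0.55 (SE 0.11, adjusted p = 0.0091). Trib3, which encodes an inhibitor of ATF4 and CHOP that is itself induced by them, was at 5.19, 6.38, 1.64 and 7.80 CPM in number 1 and 30.5, 19.9, 15.4 and 16.1 CPM in number 2. Its difference was the largest of the members, with a log2 fold change of 2.08 (SE 0.38, adjusted p = 0.0065).

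Asns makes asparagine from aspartate and glutamine and is a textbook ATF4 target. It was at 153, 122, 216 and 166 CPM in Small 1, Medium 1, Large 1 and All 1, and at 56.3, 53.6, 81.2 and 36.4 CPM in the number 2 libraries. The lowest number 1 library was above the highest of number 2, opposite to Atf4, and the log2 fold change was -1.55 (SE 0.16, adjusted p = 0.00090 by edgeR). Ppp1r15a, whose product reverses eIF2 phosphorylation, was at 333, 263, 190 and 255 CPM in number 1 and 182, 140, 138 and 163 CPM in number 2. By CPM the sets stood apart by a small gap between Large 1 and Small 2. By TPM they overlapped, as Large 1 at 105 TPM lay below Small 2 at 127 TPM and All 2 at 111 TPM. The log2 fold change was -0.72 (SE 0.10, adjusted p = 0.0023 by edgeR). Psat1, the aminotransferase of serine synthesis, was at 144, 135, 186 and 156 CPM in number 1 and 69.7, 104, 178 and 70.8 CPM in number 2. Large 2 lay inside the range of number 1, and the log2 fold change of -0.66 (SE 0.19, adjusted p = 0.037) was called with 1 library left out in 2 of 8 cases, those without a Large library. The other 5 calls held in 8 of 8.

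The remaining 4 members did not pass the test between the numbers. Herpud1 had a log2 fold change of 0.19 (SE 0.09, adjusted p = 0.15 by edgeR), Sesn2 of 0.36 (SE 0.24), Xbp1 of -0.15 (SE 0.10) and Chac1 of 0.35 (SE 0.74). The HSC marker sum stood higher in number 2 and the granulocyte and monocyte sum stood higher in number 1, as given above. The 12 proliferation genes summed to 3938 to 5697 CPM in number 1 and 2052 to 5094 CPM in number 2. The part of these cells and genes in the 6 calls was not tested.

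**Figure D2:**
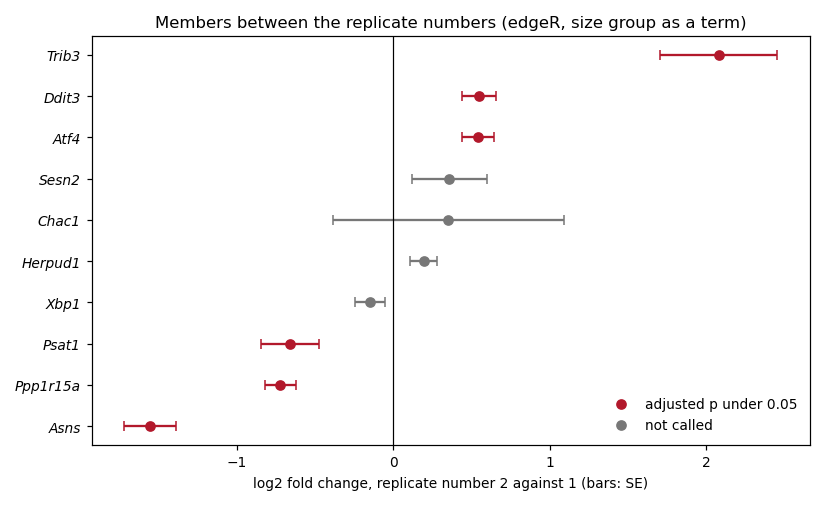
Log2 fold change of each member between replicate number 2 and number 1 (x axis) with its standard error as a bar, from the edgeR fit with size group as a term. Called members are in red: Trib3, Ddit3 and Atf4 lie to the right of 0, and Psat1, Ppp1r15a and Asns to the left.

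Across cell size, neither the members nor any other gene passed the test in the unblocked fit. For Large against Small, edgeR called 0 of 10 members and 0% of 16066 genes, and 3.15% of genes and 1 member, Sesn2, had an unadjusted p under 0.05. Fitted with the replicate number as a block, edgeR again called 0%, and 4 members were among the 17.4% of genes with an unadjusted p under 0.05. DESeq2 with the replicate block called 8.95% of genes and 2 members, Ppp1r15a and Psat1. Within both numbers, 4 members were higher in Large (background 32.9% of genes) and 4 lower (30.9%), and 2 members had groups that did not overlap (32.5%). The median log2 fold change of the members was -0.02, beside 0.00 over all genes.

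Sesn2, whose product restrains mTORC1 when leucine is short, was at 22.4 and 25.2 CPM in Small 1 and 2, 14.6 and 25.6 CPM in Medium, 9.08 and 14.8 CPM in Large, and 13.3 and 11.1 CPM in All. The Large values were below the Small values without overlap, and the log2 difference of Large from Small was -1.29 within number 1 and -0.76 within number 2. The fitted log2 fold change was -0.99 (SE 0.42, unadjusted p = 0.049, adjusted p = 0.98 by edgeR without the block). With the replicate block edgeR gave -1.02 (SE 0.34, adjusted p = 0.17). DESeq2 with the replicate block gave an adjusted p of 0.051. Trib3 differed between Large and Small by -1.58 within number 1 and -0.97 within number 2 on the log2 scale. Its groups overlapped across the numbers, and the fit without the block gave -1.06 (SE 1.20). With the replicate block it was -1.19 (SE 0.51, adjusted p = 0.28 by edgeR). Without Small 2 the unblocked value was 0.72, a fit in which the remaining Small library is of number 1 and the difference between numbers stays in the value.

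Ppp1r15a was highest in Small 1 at 333 CPM and Small 2 at 182 CPM, and its order was Small, Medium, Large within both numbers (333, 263 and 190 CPM, then 182, 140 and 138 CPM). A falling order within both numbers was seen for 5.37% of genes and a rising one for 5.75%, and no member had the rising order. The log2 fold change from Small to Large was -0.65 (SE 0.43, adjusted p = 0.98 by edgeR without the block). With the replicate block edgeR gave -0.60 (SE 0.14, adjusted p = 0.096). DESeq2 with the replicate block called it at -0.62 (SE 0.16, adjusted p = 0.0027). The 14 immediate early genes, known for quick induction by handling and other stimuli, summed to 8892 and 10160 CPM in Small, 7124 and 8647 CPM in Medium, 4762 and 6629 CPM in Large, and 6300 and 9189 CPM in All. That sum also went Small, Medium, Large within both numbers, and its part in the Ppp1r15a values was not tested.

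Psat1 lay in the other direction. Both Large libraries (186 and 178 CPM) were above both Small (144 and 69.7 CPM) and both Medium libraries (135 and 104 CPM), with log2 differences from Small of 0.37 within number 1 and 1.35 within number 2. The fitted log2 fold change was 0.76 (SE 0.46, adjusted p = 0.98 by edgeR without the block). With the replicate block edgeR gave 0.87 (SE 0.26, adjusted p = 0.14). DESeq2 with the replicate block called 0.86 (SE 0.27, adjusted p = 0.019). Asns differed from Small to Large by 0.50 and 0.52 on the log2 scale within the 2 numbers, with overlapping groups. The fit gave 0.50 (SE 0.86) without the block and 0.51 (SE 0.23, adjusted p = 0.29 by edgeR) with it. Without Large 1 the unblocked value was -0.39, a fit in which the remaining Large library is of number 2. The sum of the proliferation genes was highest in the Large libraries, at 5697 and 5094 CPM against 4263 and 2467 CPM in Small. Each of these genes was higher in Large than in Small within both numbers. Across the numbers not every gene kept that order. Mki67 was at 18.7 CPM in Large 2 and 63.0 CPM in Medium 1, and Ccnb1 at 290 CPM in Large 2 and 402 CPM in Small 1. The part of the proliferation genes in the Psat1 and Asns values was not tested.

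The remaining members had fitted differences between Small and Large that were smaller than their errors. Xbp1 was at 452 and 404 CPM in Small and 422 and 382 CPM in Large, and Herpud1 at 333 and 327 CPM in Small and 289 and 330 CPM in Large. Fitted log2 fold changes were -0.09 (SE 0.20) for both, 0.05 (SE 0.35) for Atf4 and 0.12 (SE 0.35) for Ddit3. With the replicate block in edgeR the values were -0.09 (SE 0.14) for Xbp1 and -0.10 (SE 0.12) for Herpud1. Those of Atf4 and Ddit3 were 0.07 (SE 0.15) and 0.11 (SE 0.15), again smaller than their errors. Chac1 rested on 12, 16, 12 and 30 estimated counts in Small 1, Small 2, Large 1 and Large 2, and its fit of 0.56 (SE 0.89) has an error larger than itself. For none of these 5 genes was a size difference detectable at this replication.

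**Figure D3:**
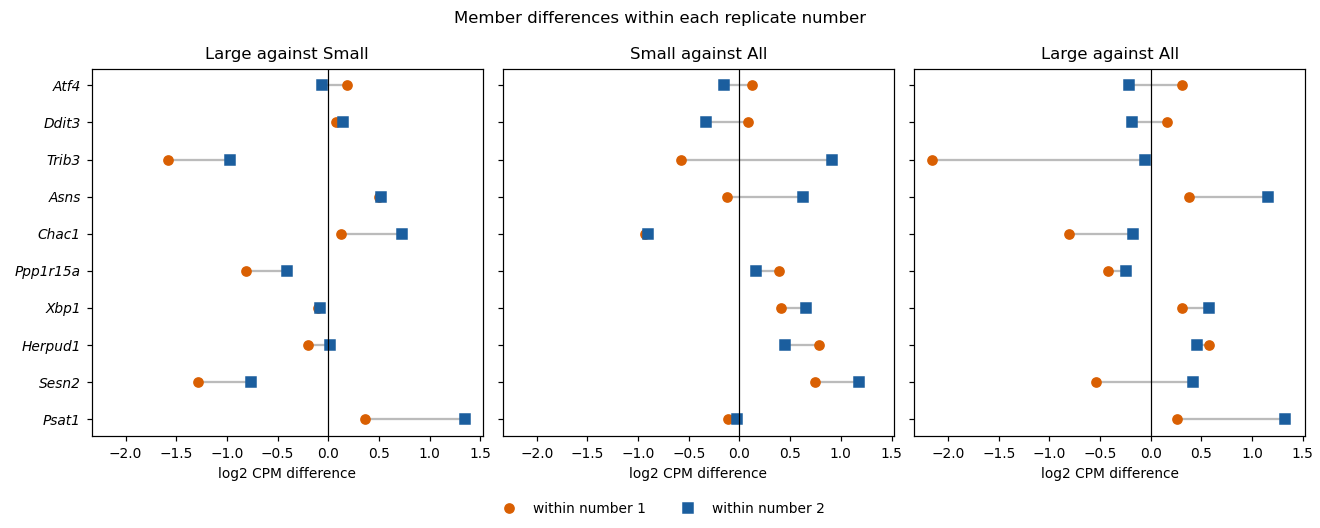
Log2 CPM difference of each member within number 1 (circles) and within number 2 (squares) for Large against Small, Small against All and Large against All. Sesn2, Trib3 and Ppp1r15a lie left of 0 and Psat1 and Asns right of 0 in the first panel, and Xbp1 and Herpud1 lie right of 0 in both other panels.

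The Medium cells gave no further calls. For Medium against Small, edgeR called 0% of genes and 0 members. An unadjusted p under 0.05 was reached by 4.33% of genes and 0 members in the unblocked fit and by 12.5% and 2 members with the replicate block. DESeq2 with the replicate block called 3.27% of genes and 0 members. Within both numbers 2 members were higher in Medium (30.1% of genes) and 5 lower (29.3%), and 3 had groups apart (31%): Xbp1, at 345 and 376 CPM in Medium, Herpud1, at 243 and 301 CPM, and Chac1, at 10 and 5 estimated counts, all below Small. The median of the members was -0.25, beside -0.01 over all genes. For Large against Medium the calls were again 0% and 0 members, with unadjusted shares of 1.87% of genes and 0 members without the block and 14.8% and 2 members with it, and DESeq2 with the replicate block called 5.97% of genes and 0 members. Here 5 members were higher in Large within both numbers (32.9%) and 4 lower (33%), and 3 had groups apart (35.6%): Psat1, Xbp1 and Chac1, all higher in Large. For Xbp1 the gap was narrow, with 382 CPM in Large 2 and 376 CPM in Medium 2. By TPM these 2 libraries were in the reverse order (278.0 and 279.3 TPM). Chac1 rested on 12 estimated counts in Large 1 and 10 in Medium 1. For members that moved with the number, the error narrowed with the replicate block: Asns had a log2 fold change of 0.76 (SE 0.86) without it and 0.70 (SE 0.23, adjusted p = 0.22 by edgeR) with it, and Trib3 of -0.62 (SE 1.19) and -1.01 (SE 0.51).

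A slope over Small, Medium and Large, fitted to the 6 gated libraries with the replicate number as a block, called 0.0249% of genes and 0 members. At an unadjusted p under 0.05 there were 13.4% of genes and 4 members. Ppp1r15a had a log2 slope of -0.30 per gate (SE 0.09, adjusted p = 0.24 by edgeR), Psat1 of 0.42 (SE 0.12, adjusted p = 0.24), Sesn2 of -0.52 (SE 0.15, adjusted p = 0.24) and Trib3 of -0.60 (SE 0.24, adjusted p = 0.34). The slopes of Atf4, Ddit3, Xbp1 and Herpud1 were between -0.05 and 0.06.

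In the comparisons with the unfractionated cells, Xbp1 was at 340 and 257 CPM in All 1 and 2, below all 6 size-gated libraries, which ran from 345 to 452 CPM, though All 1 and Medium 1 lay close. Herpud1 was at 194 and 240 CPM in All, below the 243 to 333 CPM of the gated libraries. By CPM, both genes had groups apart from All in each of the 3 gates. By TPM this did not hold for Herpud1 in Medium and Large. Its All 2 value, 234 TPM, lay above Medium 1 at 217 TPM and Large 1 at 225 TPM. Their log2 fold changes for Small against All were 0.52 (SE 0.20) for Xbp1 and 0.61 (SE 0.20) for Herpud1, both with an adjusted p of 1 by edgeR, and with the replicate block 0.52 (SE 0.14) and 0.62 (SE 0.12), both with an adjusted p of 0.29. With DESeq2 and the replicate block, Herpud1 was called at 0.64 (SE 0.14, adjusted p = 0.0014) and Xbp1 at 0.55 (SE 0.16, adjusted p = 0.031). For Large against All the same fit called Herpud1 at 0.53 (SE 0.14, adjusted p = 0.0038) and Psat1 at 0.81 (SE 0.27, adjusted p = 0.029). It also called Asns at 0.74 (SE 0.25, adjusted p = 0.032) and Xbp1 at 0.45 (SE 0.16, adjusted p = 0.040). By edgeR with the replicate block the adjusted p-values of these genes were 0.098, 0.16, 0.14 and 0.15, in that order. The 3 comparisons with All share the same pair of All libraries and are not independent of each other. Plasma cells, known for high Xbp1, had marker sums of 2630 and 355 CPM in Small, 1667 and 1655 CPM in Medium, 284 and 6277 CPM in Large, and 960 and 320 CPM in All, for 9 of 9 genes with a gene ID. Ighm and Igkc gave the largest parts of these sums, and the genes did not move together. From Small 1 to Small 2, Ighm fell from 1159 to 224 CPM and Igkc from 942 to 50.8 CPM. Jchain, Mzb1 and Igha also fell. Sdc1 rose from 6.35 to 50.1 CPM and Irf4 from 0 to 18.8 CPM, and Prdm1 also rose. Tnfrsf17 was at 0 in both. The part of plasma cells in the Xbp1 and Herpud1 values was not tested.

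The background counts for these comparisons were as follows. Small against All had 0% of genes and 0 members called by edgeR, 3.96% of genes and 2 members (Herpud1 and Xbp1) at an unadjusted p under 0.05, and 11.5% and 3 members with the block. DESeq2 with the replicate block called 2.33% of genes and 2 members. Within both numbers 4 members were higher in Small (26.7%) and 2 lower (31.3%), and 4 had groups apart (26.7%): Xbp1, Herpud1 and Sesn2 higher and Chac1 lower. Medium against All had 0% called, 1.63% and 0 members unadjusted, 5.26% and 1 member with the block, and 0.0747% and 0 members by DESeq2 with the block. There 4 members were higher (24.6%) and 1 lower (24.9%), and the same 4 genes had groups apart (22.5%) in the same directions. Large against All had 0% called, 3.14% and 1 member (Herpud1) unadjusted, 19.8% and 5 members with the block, and 10.3% and 4 members by DESeq2 with the block. In it 4 members were higher (31.2%) and 3 lower (32.6%), and 3 had groups apart (32%): Xbp1, Herpud1 and Psat1, all higher in Large. Chac1, at 23 and 40 estimated counts in All, was the member with the fewest reads, and its Medium against All value of -2.03 (SE 0.93) rests on 10 and 5 counts in Medium.

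The other genes of the pathways were described from 5 lists. Of the list of eIF2 kinases with eIF2 and eIF2B factors, 17 of 17 genes were tested. Between the numbers 1 was higher in number 2 (12.5% of all genes). This was Impact, whose product binds the eIF2 kinase activator GCN1, at 0.90 (SE 0.14, adjusted p = 0.0038 by edgeR). In that list 5 were lower in number 2 (12.1% of all genes): Eif2s1, Eif2s2, Eif2b1, Eif2b3 and Ppp1r15b. For Large against Small 0 were called by edgeR, 10 of 17 were higher and 5 lower within both numbers (32.9% and 30.9% of all genes), and DESeq2 with the replicate block called 3 higher (8.95% of all genes in either direction). Eif2s1, the subunit of eIF2 that is phosphorylated, was at 370 and 214 CPM in Small and 494 and 343 CPM in Large (DESeq2 adjusted p = 0.0070). Eif2s2 was at 60.6 and 49.0 CPM in Small and 109 and 76.0 CPM in Large (DESeq2 adjusted p = 0.0033). Gcn1 (101 and 136 CPM in Small, 86.0 and 103 CPM in Large) and Impact (30.1 and 66.3 CPM, 23.8 and 51.7 CPM) lay lower in Large without a call.

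Of 34 other ATF4 and CHOP target genes, 31 were tested, and calls between the numbers went in both directions. In number 2, 5 were higher (12.5% of all genes): Atf3, Cebpb, Vldlr, Slc3a2 and Phgdh. Lower in number 2 were 8 (12.1% of all genes): Eif4ebp1, Ero1l, Slc7a5, Mthfd2, Aldh18a1, Gars, Nars and Tars. Among these, Gars, Nars and Tars are aminoacyl-tRNA synthetases and Mthfd2 is a mitochondrial folate enzyme. Phgdh, the enzyme that starts the serine pathway in which Psat1 acts, was higher at 0.40 (SE 0.08, adjusted p = 0.0080 by edgeR) while Psat1 was lower. For Large against Small edgeR called 0, and 15 of 31 were higher and 12 lower within both numbers (32.9% and 30.9% of all genes). The median of the list was 0.18 in the fit, -0.10 within number 1 and 0.19 within number 2, so its sign differed between the numbers. Mthfd2 was at 35.0 and 10.8 CPM in Small and 58.7 and 44.1 CPM in Large, and Nars at 198 and 145 CPM and 303 and 197 CPM; DESeq2 with the replicate block gave adjusted p-values of 0.026 and 0.015. Cebpb, a partner factor of ATF4, was at 159 and 289 CPM in Small and 82.0 and 201 CPM in Large (DESeq2 adjusted p = 0.0060). Atf3, a stress-induced repressor, was at 107 and 141 CPM in Small and 34.2 and 131 CPM in Large (DESeq2 adjusted p = 0.054).

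The ER stress sensors and their proteases gave 8 tested genes of 9, with 0 called between the numbers (24.6% of all genes) and 0 by edgeR between sizes. Mbtps1, the protease that first cuts ATF6, was at 121 and 123 CPM in Small and 82.8 and 95.8 CPM in Large (DESeq2 with the replicate block, adjusted p = 0.028), and Creb3l2, a membrane-bound factor related to ATF6, at 23.7 and 39.2 CPM and 16.7 and 18.7 CPM (0.060). Both lay below Small in both Large libraries. Within both numbers, 0 of the 8 genes were higher in Large (32.9% of all genes) and 4 were lower (30.9%).

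The 19 ER chaperones and folding enzymes, all tested, lay mostly one way between the numbers and between Large and Small. In number 2, 17 were lower (12.1% of all genes) and 1 higher (12.5%). The higher gene was Dnajb9, a co-chaperone that restrains IRE1, at 0.52 (SE 0.13, adjusted p = 0.022 by edgeR). For Large against Small 0 were called by edgeR with or without the block, but 17 of 19 were higher and 2 lower within both numbers (32.9% and 30.9% of all genes), with medians of 0.40 and 0.49 on the log2 scale. DESeq2 with the replicate block called 7 of 19 higher, where it called 8.95% of all genes. Hsp90b1, the ER form of HSP90, was at 498 and 287 CPM in Small and 853 and 399 CPM in Large (DESeq2 adjusted p = 0.00082). Pdia3, a disulfide isomerase, was at 1369 and 920 CPM in Small and 1870 and 1322 CPM in Large (DESeq2 adjusted p = 0.00093). The genes that lay lower in Large were Dnajb9 (46.5 and 62.9 CPM in Small, 39.1 and 52.2 CPM in Large) and Hyou1 (55.4 and 37.9 CPM, 51.7 and 30.6 CPM). Large against All gave 18 of 19 higher within both numbers (31.2% of all genes) and 16 called by DESeq2 with the block (10.3% of all genes). Other marker genes also differed by gate in these libraries. The granulocyte and monocyte sum was 48784 and 14175 CPM in Small and 47240 and 24945 CPM in Large, a sum that was lower in Large within number 1 and higher within number 2. Of its genes, Mpo was at 13617 and 3462 CPM in Small and 16527 and 7201 CPM in Large. Elane was at 3934 and 1081 CPM in Small and 6329 and 2502 CPM in Large. Both were higher in Large within both numbers, as were Prtn3, Ctsg, Ms4a3 and Ly86. The rest of the list, S100a8, S100a9, Lyz2, Ngp, Camp, Ltf, Mmp8 and Csf1r, went opposite ways within the numbers. They were lower in Large within number 1 and higher within number 2. S100a8 was at 5841 and 1551 CPM in Small and 4322 and 2660 CPM in Large. The HSC marker sum was 1782 and 3564 CPM in Small and 954 and 2071 CPM in Large, and the sum of 7 sorted-against antigens 1531 and 830 CPM in Small and 2099 and 1340 CPM in Large. The part of these cells, and of the proliferation genes given above, in the chaperone values and in the size differences of Sesn2, Ppp1r15a, Psat1 and Asns was not tested. The fitted Large against Small values of Xbp1 and Herpud1 in the same libraries were -0.09 each, as given above.

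Of 18 genes of ER-associated degradation, all tested, 1 was higher in number 2 (12.5% of all genes), Edem2. Lower in number 2 were 5 (12.1% of all genes): Edem1, Edem3, Derl1, Derl2 and Ube2g2. For Large against Small edgeR called 0, and 4 of 18 were higher and 7 lower within both numbers (32.9% and 30.9% of all genes). Derl2, a channel component, was at 86.0 and 53.8 CPM in Small and 121 and 91.4 CPM in Large (DESeq2 with the replicate block, adjusted p = 0.0070), and Selenos at 114 and 103 CPM and 169 and 122 CPM (0.20). Syvn1, the ubiquitin ligase HRD1 of this pathway, was at 59.2 and 54.9 CPM in Small and 38.0 and 42.2 CPM in Large, and Herpud2, the paralogue of Herpud1, at 61.1 and 79.7 CPM and 57.6 and 52.2 CPM, neither called. For Medium against Small 13 of the 18 were lower within both numbers (29.3% of all genes), with medians of -0.42 and -0.22, and 0 were called by edgeR or by DESeq2 with the block; Herpud1 also lay lower in both Medium libraries.

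**Figure D4:**
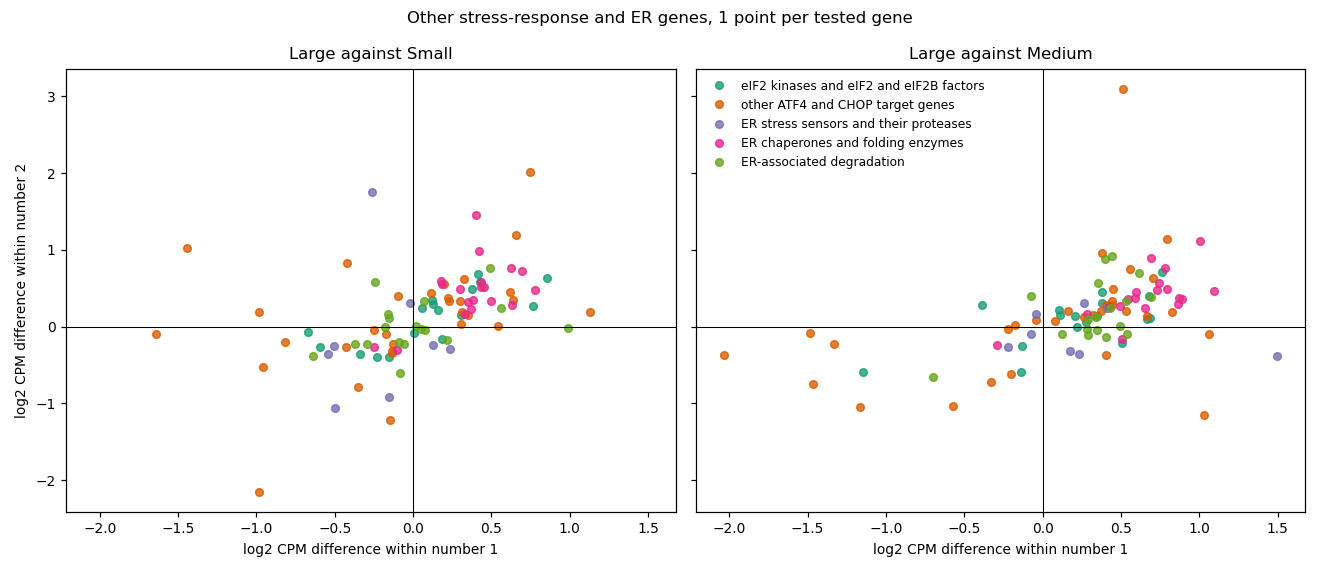
Log2 CPM difference within number 1 (x axis) against that within number 2 (y axis) for each tested pathway gene, 1 point a gene coloured by list, for Large against Small and Large against Medium. Of the 19 ER chaperones, 17 lie in the upper right quadrant of each panel, while 0 of the 8 ER stress sensors do so for Large against Small.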

How the data were processed

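The 8 RNA libraries were made with a Clontech v4 low-input kit, per the labels' protocols. The submitters' processing notes name STAR 2.5.3a, RSEM 1.3.0, SAMtools 1.3 and mm10. The annotation release and strand setting were not given in the sources used here. Estimated counts per gene were deposited by the authors and were rounded to whole numbers here. The authors also deposited log2(TPM + 1) values, used for levels between genes and in 1 alternative. Symbols came from GENCODE M21 (50462 of 50686 IDs matched; the rest held at most 0.0359% of a library). Coordinates of promoters are of GRCm38.p6, from RefSeq. Of 231 listed genes, 1 (Ly76) matched no ID.

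Genes were tested with edgeR 4.0.16 in R 4.3.3 (TMM scaling, filterByExpr with a minimum count of 10, robust quasi-likelihood fit on size group, 4 residual degrees of freedom), with Benjamini-Hochberg adjustment over 16066 genes and a threshold of 0.05. Log2 differences within a number used a prior count of 2. An exact permutation test of 2 against 2 libraries cannot go below a two-sided p of 0.333, so none was run. Deviations of same-numbered libraries from their group means correlated at 0.36 to 0.44 in all 6 pairs of groups, so same-numbered libraries varied together. With 2 libraries a group, each correlation rests on 1 difference per group and cannot show that the libraries were paired by design. For each size comparison, gene counts from fits with the replicate block (3 residual degrees of freedom) are given beside the unblocked ones. Blocked values of single members are given for part of them. Alternatives were other scaling, filters, DESeq2 1.42.0, limma 3.58.1 and leaving out each library. All 10 members are named; from each pathway list up to 2 genes higher and 2 lower in Large against Small were named, with the smallest blocked p, a mean of at least 5 CPM and 1 direction within both numbers. The calls between numbers are named in full except for the chaperones. The members and lists were chosen with earlier results of these data known. Scripts were tested on simulated data. CPM is relative, so a level is a share of the library. Counting floors of 3 counts are 0.178 to 0.219 CPM.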

Additional observations from a re-analysis of the deposited data

How the results depend on the processing

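Size calls depended on the tool, on the replicate block and on the low-count filter. DESeq2 with the replicate block called 1438 genes for Large against Small, 959 for Large against Medium, 525 for Medium against Small, 374 for Small against All, 12 for Medium against All and 1651 for Large against All, where edgeR called 0 with or without the block; in the same order DESeq2 without the block called 12, 2, 46, 28, 6 and 8, and edgeR with no filter on low counts 55, 58, 73, 69, 48 and 121. On log2(TPM + 1), limma called 1 gene in each of Large against Small, Large against Medium and Large against All. Members called by DESeq2 with the replicate block were 2 for Large against Small, 2 for Small against All and 4 for Large against All.

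For the trend, edgeR called 4 genes, 7 with a filter at 5 CPM, 651 with no filter (1 member, Psat1), 1 with no replicate block, and 1 to 4 with 1 library left out. For the replicate numbers it called 3947, and 1950 to 3125 with 1 library left out, the fewest without Small 2; the Psat1 call was also lost with no filter. The cause of these shifts was not tested.

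The member median for Large against Small (-0.021) was -0.034 with DESeq2-type scaling, -0.034 with DESeq2, -0.044 with no filter, -0.126 at 5 CPM, -0.010 with the replicate block and -0.176 on log2(TPM + 1), and -0.152 to 0.134 with 1 library left out. For Large against Medium (0.029) it was -0.159 at 5 CPM, -0.051 on log2(TPM + 1) and 0.000 to 0.246 with 1 left out. For Large against All (-0.015) it was 0.014 with no filter, -0.039 at 5 CPM, 0.015 and 0.027 with the replicate block in edgeR and DESeq2, 0.010 with limma-voom, -0.106 on log2(TPM + 1) and -0.131 to 0.236 with 1 left out. With 1 left out it was 0.089 to 0.308 for Medium against All, -0.279 to -0.084 for Medium against Small and 0.100 to 0.528 for Small against All. No called member value changed sign. Signs of member values, called or not, stayed in 80 of 80 under DESeq2-type scaling, 58 of 60 with the replicate block in edgeR and 53 of 60 on log2(TPM + 1). Leaving out libraries for the trend and the replicate numbers, and counting members called, were added after seeing the data. The 2 libraries a group limit all size comparisons, and for Chac1 the low counts do as well.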
